A study of Mus musculus with 20 samples.

Results

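Bone morphogenetic protein (BMP) signalling was followed here through 10 genes: the receptors Bmpr1a and Bmpr2, the signal-carrying Smad1, Smad5 and Smad4, the inhibitory Smad6 and Smad7, and the target genes Id1, Id2 and Id3. The members were taken as the rows of the count tables with these symbols. Of the 10 genes, 9 were found in both tables, among 11296 genes that both tables held once. Smad6 was in neither table, so no value is given for it. RNA was sequenced from epithelial cells of the small intestine of C57BL/6J mice aged 8 weeks, sorted as 7AAD-, CD45-, CD31-, TER119- and EpCAM+. All mice carried Lgr5-GFP, a reporter driven by the stem cell gene Lgr5, and the labels call the GFP-high cells stem cells and the GFP-low ones transit-amplifying (TA) cells. The mice were Itgb7+/+ (WT) or Itgb7-/- (KO). Itgb7 encodes an integrin subunit of gut-homing lymphocytes, and the knockout was carried by the whole animal, so the epithelium and its lymphocytes shared the genotype. Each of the 4 groups, GFP-high and GFP-low cells of WT and of KO mice, had 5 libraries.

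In the BMP pathway, a secreted ligand brings a type I receptor such as BMPR1A together with the type II receptor BMPR2, and the activated type I receptor phosphorylates SMAD1 and SMAD5. These join the shared partner SMAD4 and enter the nucleus, where they turn on the Id genes, whose proteins block basic helix-loop-helix (bHLH) transcription factors. The same signal induces SMAD6 and SMAD7, which switch the receptors off. In the intestine, BMP ligands come largely from the mesenchyme and increase from the crypt base towards the villus, while antagonists around the crypt base keep the signal low near the stem cells.

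Library totals ran from 20900412 to 27838403 counts. The median Lgr5 level was 93.7 and 105 CPM (counts scaled to the library size) in WT and KO GFP-high cells, and 14.5 and 6.60 CPM in WT and KO GFP-low cells. Epcam, the epithelial sorting marker, had medians of 563 to 635 CPM in the 4 groups. Of 14 stromal and endothelial markers only Vim was in the tables, with medians of 3.59 and 1.81 CPM in WT and KO GFP-high cells and 18.5 and 18.6 CPM in the GFP-low cells, without overlap. Of 13 lymphocyte markers 4 were in the GFP-high table, summing to at most 44.2 CPM, and 3 in the GFP-low table, at most 32.6 CPM, with Ptprc, Cd3e and Cd8a in neither. Of 10 myeloid markers 4 and 3 were in these tables, summing to at most 29.6 and 67.3 CPM. Itgb7 was in neither table, so the genotype labels were not checked against it. In bulk libraries, fewer cells of a type and less RNA per cell cannot be told apart.

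By GENCODE M21 on GRCm38, the Id genes are short genes at chr2:152736251-152737410 (Id1, + strand), chr12:25093799-25097140 (Id2, - strand) and chr4:136143497-136145755 (Id3, + strand). The receptors are at chr14:34410734-34503341 (Bmpr1a, - strand) and chr1:59763400-59879014 (Bmpr2, + strand), and Smad1 and Smad5 at chr8:79338395-79399518 (- strand) and chr13:56703010-56742377 (+ strand).

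The members spanned a wide range of levels, which were compared between genes as CPM per kilobase of exon, with CPM scaled over all 20 libraries. Id3 was the highest in all 4 groups, at 267 ± 68.1 CPM per kilobase (SD, n = 5) in WT GFP-high cells, 220 ± 56.0 in KO GFP-high cells, 383 ± 59.9 in WT GFP-low cells and 354 ± 73.3 in KO GFP-low cells. Its libraries lay above those of every other member. Its level in WT GFP-high cells was at percentile 97.9 of 11168 genes with a known exon length. Id1 and Smad4 came next, at 31.9 ± 9.93 and 28.3 ± 2.38 CPM per kilobase in WT GFP-high cells, and the ranges of these neighbours overlapped in all 4 groups. Id2 followed at 9.77 ± 2.81, and it overlapped with Smad5 at 7.25 ± 0.752 in the same cells. Smad5 stood above Smad1 in mean level in GFP-high cells and below it in GFP-low cells, without overlap of the libraries in either GFP-low group. Below them were Bmpr1a at 3.58 ± 0.403, Smad7 at 0.890 ± 0.260 and Bmpr2 at 0.594 ± 0.0542 CPM per kilobase in WT GFP-high cells. Smad7 and Bmpr2 overlapped in both GFP-high groups and did not overlap in the GFP-low groups.

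Loss of Itgb7 gave no called change in any of the members, in either population. In GFP-high cells 0 of 9 members passed an adjusted p of 0.05 (edgeR quasi-likelihood test, Benjamini-Hochberg over 11745 genes), where 0% of all genes passed, and 0 of 9 had an unadjusted p under 0.05. In GFP-low cells 0 of 9 passed, where 0.00849% of 11778 genes passed, and 1 of 9, Id2, had an unadjusted p under 0.05. DESeq2 called 0 of the 9 members in both populations. The groups of no member were free of overlap in CPM, against 1.88% of all genes in GFP-high cells and 1.14% in GFP-low cells. The median log2 fold change of the members was -0.05 in GFP-high cells, against 0.01 over all genes, and 0.03 in GFP-low cells, against -0.0035 over all genes.

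Id2, whose protein restrains bHLH factors in lymphoid and epithelial lineages, had the largest genotype difference among the members in the fit without a block. In WT GFP-low cells its level was 27.1, 30.2, 28.2, 23.6 and 25.6 CPM in libraries 1, 3, 6, 7 and 8. In KO GFP-low cells it was 21.6, 18.6, 26.6, 18.5 and 14.4 CPM in libraries 2, 3, 4, 5 and 6. The KO libraries were lower as a set, but KO library 4 lay within the WT range. The log2 fold change was -0.44 ± 0.15 (SE), with an unadjusted p of 0.0110 and an adjusted p of 0.744 by edgeR. In GFP-high cells the Id2 difference was -0.13 ± 0.18, with a 95% interval from -0.51 to 0.26. The interaction fit, which tests whether the KO effect differed between the populations, gave -0.31 ± 0.25 for Id2, with an adjusted p of 0.9999 by edgeR. The summed level of the lymphocyte markers in the tables had medians of 6.76 CPM in WT and 11.8 CPM in KO GFP-low cells, with overlapping ranges. Over all 20 libraries its deviations from the group means correlated with those of Id2 at r = 0.53. The part of these markers in the Id2 difference was not tested.

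Id1 and Id3 were lower on average in KO GFP-high cells, without passing the test. The log2 fold changes were -0.30 ± 0.20 for Id1 and -0.28 ± 0.18 for Id3, with intervals from -0.74 to 0.14 and from -0.67 to 0.12. Leaving out single libraries moved Id1 between -0.44 and -0.11 and Id3 between -0.44 and -0.14. In GFP-low cells the corresponding values were 0.04 ± 0.22 and -0.12 ± 0.15. Smad1 and Smad4 had narrow intervals. For Smad1 the interval of the KO effect ran from -0.22 to 0.11 in GFP-high cells and from -0.16 to 0.21 in GFP-low cells. For Smad4 it ran from -0.21 to 0.13 and from -0.18 to 0.23. Smad5 differed by 0.08 ± 0.09 and 0.04 ± 0.12. Of the receptors, Bmpr1a was 0.20 ± 0.10 higher in KO GFP-high cells (adjusted p = 0.546, edgeR) and differed by 0.04 ± 0.10 in GFP-low cells, and Bmpr2 differed by -0.16 ± 0.13 and -0.12 ± 0.14. Smad7 had the widest intervals, from -0.57 to 0.59 in GFP-high cells and from -0.91 to 0.47 in GFP-low cells. The interaction test called 0 of 9 members, where 0% of 11296 genes passed, and 0 of 9 had an unadjusted p under 0.05.

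**Figure D1:**
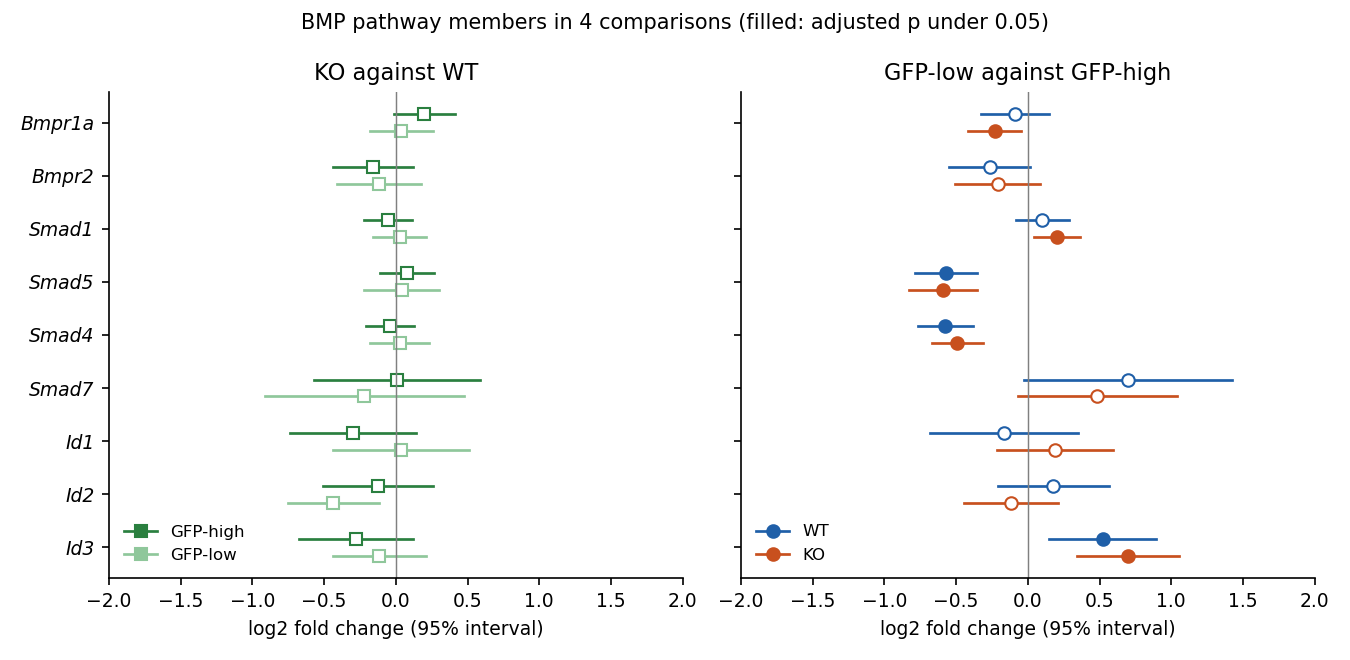
Log2 fold change of each of the 9 members in 4 comparisons, with its 95% interval from the edgeR fit, and filled symbols for an adjusted p under 0.05. On the left, no KO against WT symbol is filled; on the right, Smad5, Smad4 and Id3 are filled in both genotypes, and Bmpr1a and Smad1 in KO mice.

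The members differed between the populations. From GFP-high to GFP-low cells, Smad4 and Smad5 fell and Id3 rose in both genotypes. In WT mice 1 of 9 members was higher, 2 were lower and 6 did not pass, so 3 of 9 were called where 43.4% of all 11293 genes were called (22% higher and 21.4% lower). In KO mice 2 were higher, 3 were lower and 4 did not pass, so 5 of 9 were called where 50.5% of all genes were called (26.2% higher and 24.4% lower). The members were therefore called about as often as genes in general, and the counts say nothing particular about the pathway. The median log2 fold change of the members was -0.09 in WT and -0.11 in KO mice, against -0.01 over all genes in each. The GFP-low and GFP-high libraries did not overlap for 2 members in WT mice (Smad5 and Smad4), against 28.8% of all genes, and for 4 in KO mice (Bmpr1a, Smad1, Smad5 and Smad4), against 35.4%.

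Marker levels of several cell types also differed between the populations. The sums given here were scaled within each table, so GFP-high and GFP-low sums are not on one scale. Vim, for example, had WT medians of 3.95 CPM (GFP-high) and 16.7 CPM (GFP-low) on these scales. On the common scale they were 3.59 and 18.5 CPM. The summed level of 12 stem markers had medians of 5269 and 5641 CPM in WT and KO GFP-high cells, and of 1030 and 888 CPM in the GFP-low cells, without overlap. The summed level of 10 goblet markers had medians of 5543 and 2947 CPM in the GFP-high and 33311 and 36195 CPM in the GFP-low cells. For 11 Paneth markers the medians were 38495 and 34368 CPM in the GFP-high and 99908 and 88430 CPM in the GFP-low cells. Summed levels of enterocyte markers ran from 1075 to 1430 CPM in GFP-high and from 2251 to 5321 CPM in GFP-low libraries, those of enteroendocrine markers from 160 to 698 and from 958 to 2605 CPM, and those of proliferation genes from 1591 down to 962 and from 971 down to 591 CPM. On these separate scales the proliferation sums of the populations did not overlap within a genotype, and WT GFP-high and KO GFP-low libraries did. In WT mice the sums lay close, from 962 CPM upward in GFP-high and up to 887 CPM in GFP-low cells. Overlap on one scale was not tested for any marker list. Tuft markers had medians of 25.2 and 10.8 CPM in WT and KO GFP-high cells and of 73.0 and 48.8 CPM in the GFP-low cells, and myeloid markers medians of 15.3 and 18.4 CPM against 43.7 and 32.5 CPM, with tuft markers free of overlap in KO mice alone and myeloid markers overlapping in both genotypes. The enterocyte, enteroendocrine, tuft and myeloid sums cover the markers that each table held, 12, 11, 7 and 4 in the GFP-high and 14, 12, 8 and 3 in the GFP-low table. The part of these cell types in the changes of the members was not tested.

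Smad4 encodes the partner shared by the BMP and TGF-beta branches. GFP-high and GFP-low libraries of the same genotype and number deviated together from their group means and are read below as pairs. In WT mice it measured 93.7, 100, 105, 116 and 111 CPM in GFP-high libraries 1, 3, 6, 7 and 8, and 68.6, 67.8, 68.6, 79.7 and 68.2 CPM in the same-numbered GFP-low libraries. In KO mice it measured 112, 101, 97.7, 101 and 98.0 CPM in GFP-high libraries 2, 3, 4, 5 and 6, and 83.1, 71.7, 67.1, 68.7 and 68.9 CPM in the GFP-low libraries. Every GFP-high library lay above every GFP-low library. The log2 fold change was -0.58 ± 0.09 in WT mice (adjusted p = 0.000266, edgeR) and -0.49 ± 0.08 in KO mice (adjusted p = 0.000231). In all 10 same-numbered pairs Smad4 was lower in the GFP-low library.

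Smad5, one of the Smads that the BMP receptors phosphorylate, moved the same way. In WT mice it measured 52.6, 53.8, 56.9, 60.3 and 45.4 CPM in GFP-high libraries 1, 3, 6, 7 and 8, and 37.1, 32.0, 37.1, 35.9 and 39.0 CPM in the GFP-low libraries. The KO values were 52.7, 60.5, 57.7, 54.0 and 58.4 CPM in GFP-high libraries 2, 3, 4, 5 and 6, and 28.2, 36.4, 38.3, 40.0 and 43.3 CPM in the GFP-low libraries. The ranges were separate in both genotypes. The log2 fold change was -0.57 ± 0.10 in WT mice (adjusted p = 0.000632, edgeR) and -0.59 ± 0.11 in KO mice (adjusted p = 0.000525). Exons of Gm27301, annotated as a miscellaneous RNA on the same strand, overlap those of Smad5. Reads of the shared bases cannot be told apart.

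Smad1 carries the same signal as Smad5. It averaged 41.0 ± 2.41 CPM in WT GFP-high and 44.0 ± 2.38 CPM in WT GFP-low cells, and 39.4 ± 1.98 and 44.9 ± 0.708 CPM in the KO cells (SD, n = 5). Its log2 fold change was 0.10 ± 0.08 in WT mice (adjusted p = 0.354, edgeR) and 0.20 ± 0.08 in KO mice (adjusted p = 0.0380). The call in KO mice was lost without 8 of the 10 libraries in turn, with adjusted p up to 0.0868, and held without GFP-high library 4 or GFP-low library 5. The direction of Smad1 also turned with the scaling, to -0.25 in WT and -0.06 in KO mice when libraries were scaled by their totals alone.

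The ratio of the receptor Smads within a library is free of that scaling. The ratios of members given here were chosen after the levels were seen, so they are a description, with no test. The count of Smad5 was 1.07 to 1.41 times that of Smad1 in WT GFP-high libraries and 0.768 to 0.896 times in WT GFP-low libraries. In KO mice the ratio was 1.32 to 1.60 in GFP-high and 0.619 to 0.952 in GFP-low libraries. The ratio of counts was thus above 1 in every GFP-high library and below 1 in every GFP-low library. Per kilobase of exon, Smad5 was below Smad1 in WT GFP-high library 8 too (6.11 against 6.76 CPM per kilobase). Within the same-numbered pairs the log2 ratio changed by -0.74 ± 0.22 (SD, n = 10 pairs), lower in 10 of 10. The ratio of Smad4 to Smad1 changed by -0.69 ± 0.10, also lower in 10 of 10 pairs.

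Because the ratio of Smad5 to Smad1 differed between the populations, the bases before their first annotated starts are shown, from RefSeq on GRCm38.p6. Only the bases outside all exons of GENCODE M21 were kept, which are 250 for Smad5 (chr13:56702760-56703009, + strand) and 160 for Smad1 (chr8:79399519-79399678, - strand). Capitals mark CCAAT, read on either strand, a common promoter motif bound by NF-Y.
Smad5: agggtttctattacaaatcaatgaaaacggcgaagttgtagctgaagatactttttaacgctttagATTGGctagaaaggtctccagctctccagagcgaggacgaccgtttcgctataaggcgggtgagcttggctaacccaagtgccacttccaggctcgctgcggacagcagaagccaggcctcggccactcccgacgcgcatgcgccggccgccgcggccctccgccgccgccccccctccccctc
Smad1: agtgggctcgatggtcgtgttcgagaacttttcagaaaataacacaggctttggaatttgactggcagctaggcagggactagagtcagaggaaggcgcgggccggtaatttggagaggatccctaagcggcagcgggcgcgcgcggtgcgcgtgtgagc
The Smad5 window held CCAAT 1 time and the Smad1 window 0 times. CCAAT on either strand was in 33.8% of 32851 RefSeq promoter windows of 250 bases and in 21.5% of the 160-base windows. The 160-base windows, that of Smad1 included, were the first 160 of the 250 bases, so they stop short of the end of the 250. GGCGCC, a GC-rich motif that BMP-activated Smads can bind, was in neither window, and in 9.59% and 5.30% of all windows of these lengths. Both windows were rich in G and C, at 60% and 58.1% of their bases.

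Of the receptors, Bmpr1a averaged 22.7 ± 2.56 CPM in WT GFP-high and 21.4 ± 1.84 CPM in WT GFP-low cells. In KO mice it measured 28, 25.4, 27.1, 25.1 and 24.5 CPM in GFP-high libraries 2, 3, 4, 5 and 6, and 22.9, 23.5, 20.6, 20.7 and 22.1 CPM in the GFP-low libraries. The KO populations did not overlap, and the WT populations did. The log2 fold change was -0.23 ± 0.09 in KO mice (adjusted p = 0.0384, edgeR) and -0.09 ± 0.11 in WT mice (adjusted p = 0.537). The KO call was lost without 7 of the 10 libraries in turn, with adjusted p up to 0.0845, and held without GFP-high library 6, GFP-low library 2 or GFP-low library 3. The difference between the genotypes, tested by the interaction, was -0.15 ± 0.13 (adjusted p = 0.9999, edgeR). Reads of Bmpr1a and of the antisense gene Gm17110, whose exons overlap it, cannot be told apart without strand. Bmpr2, the type II receptor, averaged 10.7 ± 0.975 and 8.89 ± 1.13 CPM in WT GFP-high and GFP-low cells, and 9.56 ± 1.44 and 8.20 ± 0.780 CPM in the KO cells. Its log2 fold changes of -0.27 ± 0.13 and -0.21 ± 0.14 did not pass (adjusted p = 0.115 and 0.223, edgeR).

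**Figure D2:**
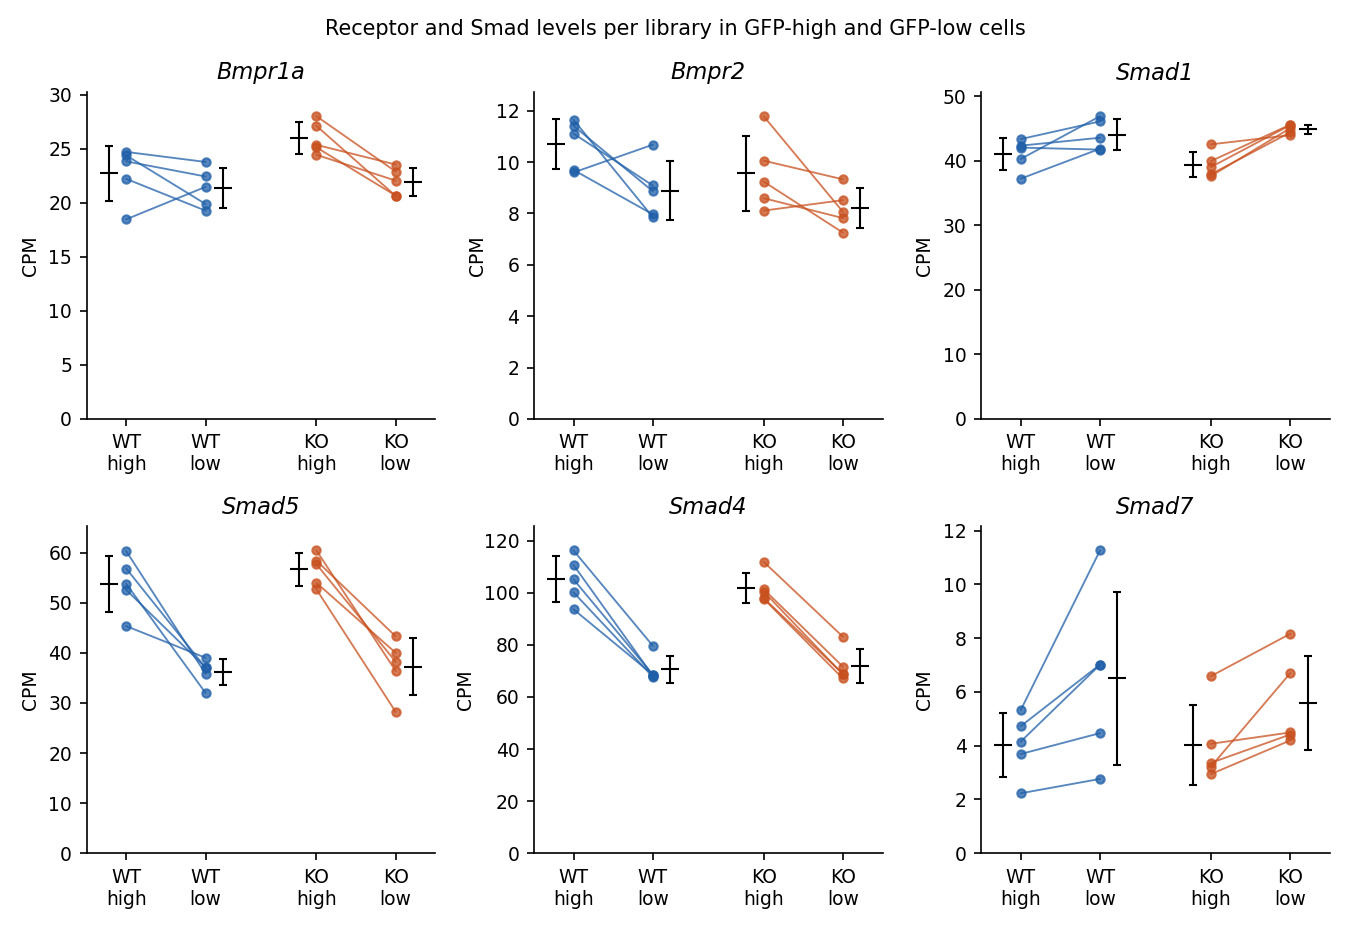
CPM of the receptors and Smads in every library, with lines joining same-numbered GFP-high and GFP-low libraries (WT blue, KO orange) and black marks for the mean and SD of 5 libraries. All lines of Smad4 and Smad5 go down and all lines of Smad7 go up, while Smad1 stays between 37.2 and 46.9 CPM.

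Smad7, an inhibitor that recruits ubiquitin ligases to activated receptors, was low and varied widely. In WT mice it measured 4.15, 4.72, 5.32, 2.23 and 3.69 CPM in GFP-high libraries 1, 3, 6, 7 and 8, and 7.01, 7.01, 11.3, 2.76 and 4.47 CPM in the GFP-low libraries. The KO values were 6.58, 4.07, 2.94, 3.22 and 3.36 CPM in GFP-high libraries 2, 3, 4, 5 and 6, and 8.16, 4.49, 4.19, 6.69 and 4.41 CPM in the GFP-low libraries. The populations overlapped in both genotypes, yet the GFP-low library was the higher one in 5 of 5 WT and 5 of 5 KO pairs. Without the pairing the log2 fold changes of 0.70 ± 0.34 and 0.48 ± 0.26 did not pass (adjusted p = 0.110 and 0.133, edgeR). With the number as a replicate block they were 0.62 ± 0.18 and 0.49 ± 0.18 and passed (adjusted p = 0.0136 and 0.0329). Without the block they also passed on leaving out WT GFP-low library 7 (0.89, adjusted p = 0.0276) or KO GFP-high library 2 (0.73, adjusted p = 0.0193).

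Among the Id genes, Id3 was the member called higher in the GFP-low cells. In WT mice it measured 510, 498, 651, 326 and 406 CPM in GFP-high libraries 1, 3, 6, 7 and 8, and 752, 656, 838, 579 and 607 CPM in the GFP-low libraries. In KO mice it measured 564, 386, 378, 327 and 314 CPM in GFP-high libraries 2, 3, 4, 5 and 6, and 792, 528, 544, 763 and 543 CPM in the GFP-low libraries. GFP-high library 6 of the WT mice and GFP-high library 2 of the KO mice reached into the GFP-low range, and the other libraries were separate. The log2 fold change was 0.52 ± 0.17 in WT mice (adjusted p = 0.0269, edgeR) and 0.70 ± 0.17 in KO mice (adjusted p = 0.00319). Within the same-numbered pairs Id3 was higher in GFP-low cells in 5 of 5 WT pairs, by 0.36 to 0.83 on the log2 scale, and in 5 of 5 KO pairs, by 0.45 to 1.22. The WT call was lost without GFP-high library 7 (0.41, adjusted p = 0.0553), GFP-high library 8 (0.47, adjusted p = 0.0661), GFP-low library 1 (0.49, adjusted p = 0.0558) or GFP-low library 6 (0.44, adjusted p = 0.0687). It was also lost when libraries were scaled by their totals alone (0.18, adjusted p = 0.461), a scaling that moved the median of all genes to -0.37, so that Id3 lay 0.55 above that median.

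Id1 and Id2 gave no called difference between the populations. Id1 averaged 37.0 ± 11.5 CPM in WT GFP-high, 32.9 ± 10.7 in WT GFP-low, 30.0 ± 7.66 in KO GFP-high and 33.9 ± 8.96 in KO GFP-low cells. It was higher in the GFP-low library in 2 of 5 WT and 3 of 5 KO pairs. Its log2 fold changes were -0.16 ± 0.24 and 0.19 ± 0.19 (adjusted p = 0.600 and 0.426, edgeR). Id2 averaged 23.8 ± 6.86 CPM in WT GFP-high and 21.8 ± 3.00 CPM in KO GFP-high cells. It was higher in the GFP-low library in 4 of 5 WT pairs and 1 of 5 KO pairs, with log2 fold changes of 0.18 ± 0.18 and -0.11 ± 0.15 (adjusted p = 0.438 and 0.556, edgeR).

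The Id genes were also set against each other within libraries, where scaling plays no part. The count of Id3 was 11.9 to 15.8 times that of Id1 in WT GFP-high and 16.2 to 28.1 times in WT GFP-low libraries. In KO mice it was 11.3 to 14.7 times in GFP-high and 16.6 to 22.4 times in GFP-low libraries. The ranges were separate in both genotypes. Within pairs the log2 ratio was higher in the GFP-low library by 0.62 ± 0.26 (SD, n = 10 pairs), higher in 10 of 10, by 0.72 on average in WT and 0.52 in KO mice. The count of Id3 was 15.9 to 26.0 times that of Id2 in WT GFP-high and 21.7 to 29.7 times in WT GFP-low libraries, which overlap, and 15.0 to 24.2 times against 20.5 to 41.2 times in KO mice, which overlap too. This log2 ratio was 0.58 ± 0.44 higher in the GFP-low libraries, in 9 of 10 pairs, by 0.32 on average in WT and 0.84 in KO mice.

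**Figure D3:**
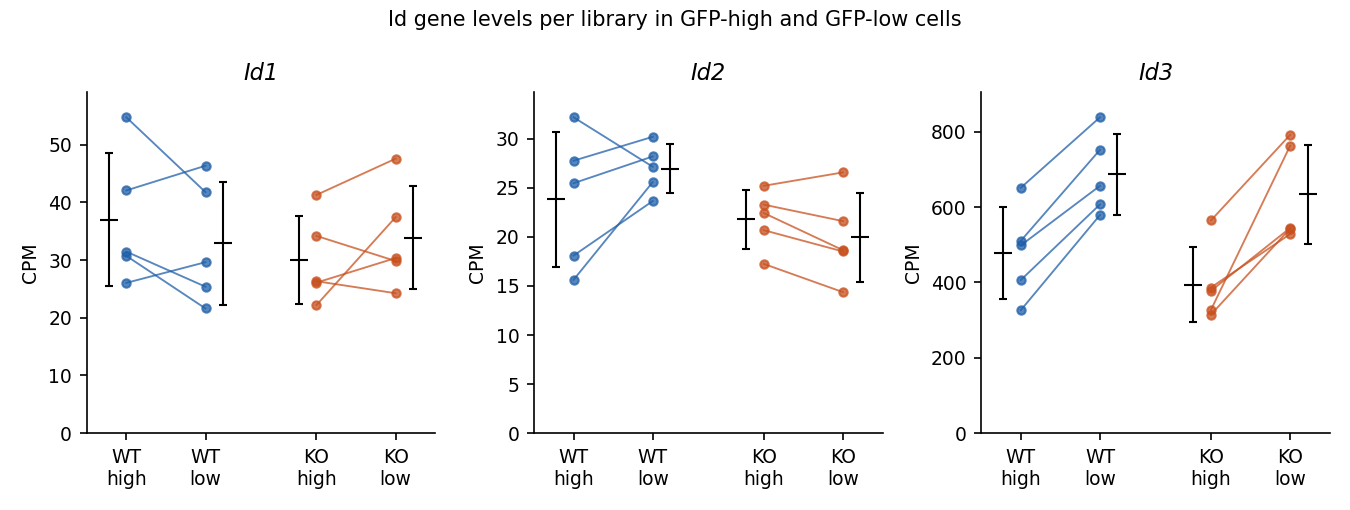
CPM of Id1, Id2 and Id3 in every library, with lines joining same-numbered GFP-high and GFP-low libraries (WT blue, KO orange) and black marks for the mean and SD of 5 libraries. All 10 lines of Id3 go up, while those of Id1 and Id2 go both ways.

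Beyond the differences between groups, some members varied together from library to library. The deviations of a same-numbered pair from their group means were averaged, which gave 10 values per gene, and all 36 pairs of members were compared. These correlations were added after the data were seen, so their p-values are given as a description. The permutations also moved values between the genotypes, although the deviations had been centred within each group. Id3 and Smad7 had Pearson's r of 0.95 (permutation p = 0.000220, adjusted p = 0.00792) and Spearman's rho of 0.88 (permutation p = 0.00176, adjusted p = 0.0410). Without the 2 pairs of libraries farthest from the median of Id3, r was 0.89. Id1 and Id3 had an r of 0.88 (permutation p = 0.00184, adjusted p = 0.0331) and a rho of 0.87 (permutation p = 0.00228, adjusted p = 0.0410), and r was 0.68 without the 2 pairs farthest from the median of Id1. Within the genotypes r was 0.96 (WT) and 0.95 (KO) for Id3 and Smad7, and 0.86 and 0.93 for Id1 and Id3, over 5 pairs each. The other 34 pairs of members did not pass. Smad1 and Smad5 had an r of 0.06 (permutation p = 0.814, adjusted p = 0.922). Across the 20 libraries, the deviations of the summed lymphocyte markers correlated with those of Id2 at r = 0.53, of Id3 at r = 0.54 and of Smad7 at r = 0.56. With those of Smad4 they correlated at r = -0.51. The largest such value over all members and marker lists was -0.72, for Smad4 and the myeloid markers. Libraries of a pair are not independent, and the part of these cells was not tested.

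**Figure D4:**
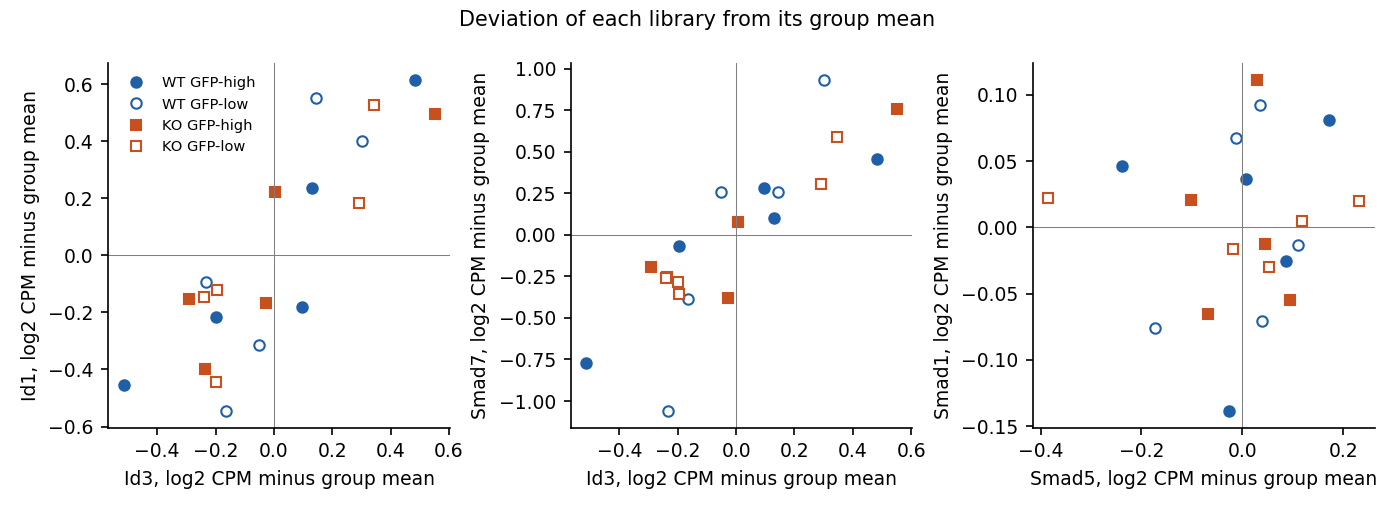
Each point is a library, plotted by its deviation from its group mean in log2 CPM for a pair of members (circles WT, squares KO, filled GFP-high, open GFP-low). Id1 and Smad7 follow Id3 across the libraries of all 4 groups, while Smad1 does not follow Smad5.

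The genes whose deviations were most like those of each Id gene were found among 7981 genes by Pearson's r over the 20 libraries, given as a description. The search kept named protein-coding genes above a minimum mean level, and Smad7 was left out because its level was too low. Over the same libraries Smad7 had an r of 0.86 with Id3, above the genes listed for Id3 other than Smndc1. For Id3 they were Smndc1 (r = 0.88), Tob2 (0.85), Id1 (0.85), Socs3 (0.85), an inhibitor of cytokine signalling, and Mcl1 (0.85), a survival factor. For Id1 they were Fam83d (0.86), Id3 (0.85), Cbx8 (0.83), Zfp296 (0.83) and Mlxipl (0.81). For Id2 they were Glt28d2 (0.85), Fam71a (0.85), Usp36 (0.84), Sertad3 (0.83) and Nr4a2 (0.83). The Id genes had no neighbour in common among these beyond Id1 and Id3 themselves.

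The wider pathway was read from 91 listed genes other than the members, of which 48 were in both tables, 1 in the GFP-high table alone (Lemd3), 5 in the GFP-low table alone (Acvrl1, Bmp2, Bmp8a, Id4 and Nbl1) and 37 in neither. The absent genes included Bmp4, the type I receptor Bmpr1b, the antagonists Nog and Grem1, and Smad9. Against genotype, 0 of 49 tested genes passed in GFP-high and 0 of 53 in GFP-low cells, and 0 of 48 passed the interaction. Between the populations, 5 were higher, 16 lower and 27 not called in WT mice, against 5, 18 and 25 in KO mice. The shares called in either direction are close to those over all genes (43.4% called in WT and 50.5% in KO mice). By direction, a smaller share was higher and a larger share lower than over all genes. Those all-gene shares were 22% higher and 21.4% lower in WT mice, and 26.2% and 24.4% in KO mice. This skew was not tested. The same all-gene shares stand behind the counts of each list that follow. The median log2 fold change of the 48 was -0.16 in WT and -0.14 in KO mice.

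Of the ligands, Bmp7 had log2 fold changes of -0.39 ± 0.19 in WT and -0.44 ± 0.16 in KO mice, and passed in KO mice (adjusted p = 0.120 and 0.0325, edgeR). That call was lost without 6 of the 10 KO libraries in turn, and with the replicate block Bmp7 passed in WT mice too (adjusted p = 0.0456). Bmp3 was called only with the block, at 0.44 and 0.32 (adjusted p = 0.0182 and 0.0150). Of the 4 other receptors and co-receptors measured, 2 fell in each genotype. Rgmb, a co-receptor that binds BMP ligands, fell by 2.07 and 2.21 on the log2 scale in WT and KO mice (adjusted p = 1.15e-06 and 1.39e-07, edgeR). Acvr2b, a type II receptor for activins and BMPs, fell by 0.91 and 1.0 (adjusted p = 0.00361 and 2.89e-06). Acvr1, a type I BMP receptor, and Acvr2a were at 0.40 and 0.24 in WT mice and did not pass.

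Of the 4 extracellular antagonists measured, 2 fell in each genotype. Fstl1 went from 39.0 ± 8.57 to 4.70 ± 3.01 CPM in WT and from 35.0 ± 3.26 to 2.74 ± 0.755 CPM in KO mice, and fell by 3.06 and 3.67 (adjusted p = 2.46e-05 and 1.24e-08, edgeR). Twsg1 fell by 0.44 and 0.46 (adjusted p = 0.0484 and 0.0199), and its WT call was lost without 8 of the 10 libraries in turn. Dand5 and Fstl3 were at 0.38 and 0.57 in WT mice and did not pass, and Fstl3 passed with the block in both genotypes (0.72 and 0.55, adjusted p = 0.0294 and 0.0270).

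Among 20 intracellular regulators, 1 was higher and 4 lower in WT mice, and 2 higher and 5 lower in KO mice. These are fewer than the 43.4% and 50.5% called over all genes would give, a difference that was not tested. Skil, a repressor of Smad-driven transcription, rose by 1.13 and 0.78 (adjusted p = 0.00121 and 6.85e-05, edgeR). Wwp1, a ubiquitin ligase, fell by 1.0 in both genotypes (adjusted p = 4.94e-05 and 2.80e-05), and Tgif2, a transcriptional corepressor, fell by 1.21 and 0.95 (adjusted p = 9.68e-05 and 9.62e-05). The phosphatase Ctdsp2 fell by 0.40 and 0.44. The pseudoreceptor Bambi, itself a BMP target, was at 0.73 and 0.57 and did not pass, and with the block it passed in WT mice (0.78, adjusted p = 0.0243).

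In the TGF-beta and activin branch, 2 of 8 genes were higher and 3 lower in WT mice, and 0 higher and 4 lower in KO mice, where 22% and 21.4% of all genes were higher and lower in WT and 26.2% and 24.4% in KO mice. Tgfbr2, the type II TGF-beta receptor, fell by 0.67 and 0.62 (adjusted p = 0.00164 and 0.00584, edgeR). Smad3, which carries the TGF-beta signal, fell by 0.49 and 0.34 (adjusted p = 0.0164 and 0.0251), and its KO call was lost without GFP-low library 3 (-0.29, adjusted p = 0.0654). Acvr1b fell by 0.46 in WT mice and was at -0.25 in KO mice, where it passed with the block (adjusted p = 0.0211). The ubiquitin ligase Nedd4l rose by 0.44 in WT mice and was at 0.23 in KO mice, and its WT call ended when libraries were scaled by their totals alone (0.093, adjusted p = 0.635, edgeR). Of the BMP targets beside the Id genes, Atoh8 moved opposite to Id3 and fell, with log2 fold changes of -1.65 and -1.69 (adjusted p = 1.30e-05 and 3.24e-05).

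The bHLH factors and E proteins, whose activity Id proteins limit, moved in both directions, with 2 of 9 higher and 4 lower in WT mice and 3 higher and 3 lower in KO mice, against 43.4% and 50.5% of all genes called. Ascl2, the stem cell factor, fell by 2.33 and 2.45 (adjusted p = 1.61e-07 and 3.40e-08, edgeR), and the Notch target Hes1 fell by 0.91 and 0.69. Atoh1, the secretory fate factor, rose by 2.52 and 2.00 (adjusted p = 0.000455 and 0.000235), and the enteroendocrine factor Neurod1 rose by 1.68 and 2.82. Id4, the remaining Id gene, was only in the GFP-low table, with a mean of 2.41 ± 0.597 CPM in WT mice and of 2.51 ± 0.464 CPM in KO mice on the scale of that table.

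**Figure D5:**
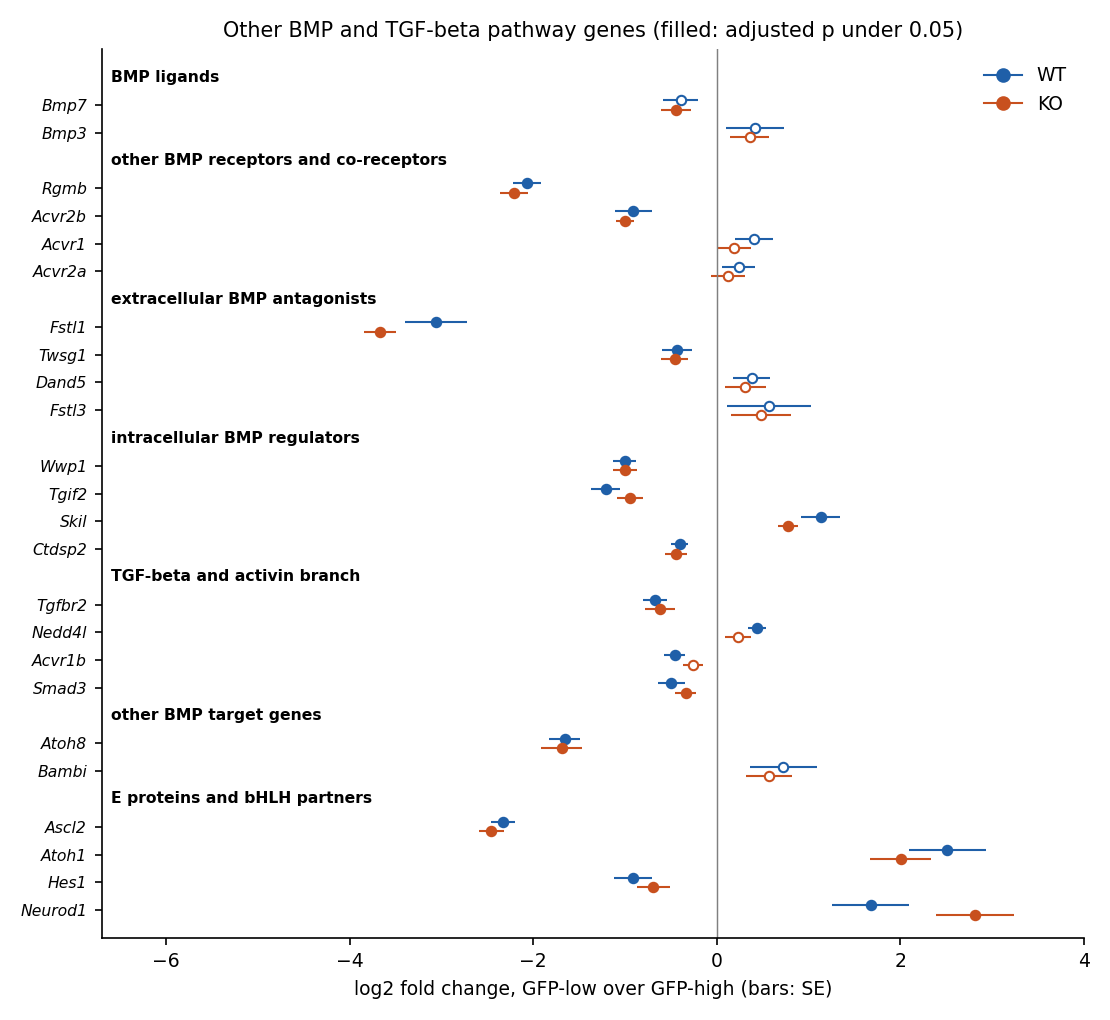
Log2 fold change from GFP-high to GFP-low cells of the pathway genes named by the rule, by list, with SE bars (WT blue, KO orange, filled for an adjusted p under 0.05). Fstl1, Rgmb, Ascl2 and Atoh8 lie furthest to the left, Atoh1 and Neurod1 furthest to the right, in both genotypes.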

How the data were processed

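The deposited expected counts came as a GFP-high table of 11746 entries and a GFP-low table of 11779 entries. The submitters' processing notes name RSEM, TopHat2, Bowtie2 and mm10, with versions not given in the sources used here. Of the deposited values 13.7% were not whole, and all were rounded to counts. No entry had a mean count below 17.0 (GFP-high) or 16.8 (GFP-low), and genes under these levels are not analysed here.

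Tests used edgeR 4.0.16 in R 4.3.3 (quasi-likelihood, TMM, filterByExpr at a minimum count of 10, Benjamini-Hochberg at 0.05 over all genes, no block), with DESeq2 1.42.0 as an alternative. Libraries of 1 group differed by a chi-square per gene of at least 18.9, so none repeated another. The labels number the libraries without saying that a number is an animal. Same-numbered GFP-high and GFP-low libraries of a genotype deviated together (r = 0.169 to 0.625, each highest with its own number), so the numbers pair them; p-values otherwise measure the spread between these libraries. SE came from the F statistic.

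The members and lists were chosen with earlier results of these data known. All members are named, with up to 4 genes per list of smallest p in WT GFP-low against GFP-high cells. The 5 genes most like each Id gene, among those above the minimum mean level of that search, are named too. The ratios within libraries and the correlations over pairs were added after the data were seen, both as a description. Levels are TMM-scaled CPM over 20 libraries, except the summed cell type and proliferation markers, which were scaled within each table. Positions and exon lengths are from GENCODE M21, and 7 of the 10 genes had a RefSeq promoter.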

Additional observations from a re-analysis of the deposited data

Results flagged for a closer look

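Of 36 groups of 5 libraries (9 members in 4 groups), 4 had a library farther from the others than Dixon's critical value of 0.71, a limit that chance passes in about 1 of 20 groups. Id3 was at 564 CPM in KO GFP-high library 2, against 314 to 386 CPM in the other 4. Smad4 was at 112 CPM in the same library, against 97.7 to 101 CPM, and at 83.1 CPM in KO GFP-low library 2, against 67.1 to 71.7 CPM. In WT GFP-low library 7 Smad4 was at 79.7 CPM, against 67.8 to 68.6 CPM. Without KO GFP-high library 2 the difference of Id3 between KO and WT GFP-high cells was -0.44, against -0.28 with it, and neither passed the edgeR test. The calls of Smad4 between the populations held without each of these libraries.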

How the results depend on the processing

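Smad4 and Smad5 kept direction and call between the populations under every alternative run, and Id3 in KO mice did too. Library totals alone moved the median of all genes to -0.37 in WT and -0.27 in KO mice between the populations, and the calls from 2479 higher and 2422 lower to 1188 and 4895 in WT, and from 2956 and 2751 to 1778 and 4738 in KO mice. With totals the direction turned for Smad1 (-0.25 in WT, -0.057 in KO), Id2 in WT (-0.18), Id1 in KO (-0.057), Acvr2a (-0.088 in WT, -0.13 in KO), Dand5 in WT (-0.014), Nedd4l (-0.022) and Acvr1 (-0.078) in KO, for Bmpr2 (0.039) and Id3 (0.029) in KO against WT GFP-low cells, and for Smad5 in the interaction (0.061). With totals the members Bmpr1a in WT (-0.46) and Bmpr2 (-0.63 and -0.47) were called. So were the named pathway genes Bmp7 in WT (-0.75) and Acvr1b in KO mice (-0.52).

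For KO against WT, DESeq2 called 145 genes in GFP-high and 12 in GFP-low cells, against 0 and 1 by edgeR, where 1150 and 744 genes had an unadjusted p under 0.05. WT and KO libraries share only the numbers 3 and 6 and did not deviate together by number (r = -0.08 to -0.10), so no pairing is assumed there. With the number as a replicate block, every library other than 3 and 6 has a block term of its own. The values of that fit therefore rest on libraries 3 and 6 of each genotype, paired by numbers that did not deviate together. It called 122 genes in GFP-high and 36 in GFP-low cells, and 1 member, Id3 at -0.70 in GFP-high cells (adjusted p = 0.0410, edgeR). Smad7 was at -0.43 there. In GFP-low cells Smad7 (-0.998), Id2 (-0.83) and Id1 (-0.27) were not called. Among the pathway genes that block also called Neurog3 in GFP-high cells (-1.63, adjusted p = 1.24e-07), which was at -1.08 (adjusted p = 0.256) without it; Neurog3 lies outside the naming rule and was singled out after its value was seen. The block within genotypes changed the calls of Smad7, Bmp3, Bmp7, Fstl3, Bambi and Acvr1b given above. It also changed that of Neurog3, which passed between the WT populations only with the block (1.02, adjusted p = 0.0483, edgeR). The calls of no other named gene changed.

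Leaving out single libraries gave 0 to 1 called genes for KO against WT in the GFP-high libraries, 1 to 2 in GFP-low cells, and 3 to 4 members between KO populations, against 5 with all. Directions turned in leave-outs, all without a call: KO against WT in the GFP-high libraries for Id2 (-0.24 to 0.0090) and Smad7 (-0.24 to 0.13), in GFP-low libraries for Smad7 (-0.41 to 0.076), Smad4 (-0.027 to 0.076), Id1 (-0.11 to 0.19) and Smad5 (-0.021 to 0.13), for Id1 between WT populations (-0.32 to 0.025), and in the interaction for Smad5 (-0.10 to 0.050), Smad7 (-0.42 to 0.069) and Bmpr2 (-0.015 to 0.13). The cause was not tested. The ratio of Smad5 to Smad1 ranged from -0.79 to -0.70 and that of Id3 to Id1 from 0.57 to 0.66. Genes below the deposited minimum, Smad6 among the absent ones, are outside what these tables can show.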

Other observations

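A list of 15 immediate early response genes, among them Fos, Jun, Egr1 and Socs3, was added after Socs3 and Nr4a2 were seen among the genes most like the Id genes. Their summed level ran from 933 to 3824 CPM in WT GFP-high and from 1835 to 2771 CPM in KO GFP-high libraries, and from 2670 to 6735 CPM in WT GFP-low and from 4155 to 5640 CPM in KO GFP-low libraries. From GFP-high to GFP-low cells, 5 of the 15 were called higher and 0 lower in WT mice, and 14 higher and 0 lower in KO mice (edgeR), where 22% and 26.2% of all genes were called higher. Over the 20 libraries the deviation of the sum from its group mean correlated with Id2 at r = 0.71, with Id3 at 0.64, with Smad7 at 0.60 and with Smad4 at -0.64, libraries of a pair not being independent. The list was prompted by neighbours of Id2 and Id3 in these same libraries and holds Socs3. Its correlations with these Id genes are therefore in part set by that choice. For Id3 the correlation was 0.93, 0.77 and 0.76 in WT GFP-high, KO GFP-high and WT GFP-low cells and -0.85 in KO GFP-low cells, over 5 libraries each. In the same order Smad7 had 0.85, 0.49, 0.88 and -0.93, and Smad4 had -0.86, 0.50, -0.95 and -0.80, so the sign was not shared by all groups for any of these 3 genes. For Id2 it was 0.88, 0.92, 0.77 and 0.24. The part of these genes in the changes of the members was not tested.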
